A study of Mus musculus with 9 samples.

Results

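The Slit ligands and the Robo receptors were followed in mouse retina: Slit1, Slit2, Slit3, Robo1, Robo2, Robo3 and Robo4, 7 of the 22337 genes in the table. The family was chosen because Slit3 was higher in rd10 retina than in WT retina and higher again in rd10 retina given MSC-EVs. Slit3 was thus selected on the same libraries, and its values are given below as a description, with no test. The other 6 members were taken in because they belong to the family, with earlier results of these data known. They were tested in a fit over all genes. All 7 members passed the filter on low counts over the 9 libraries.

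Slit proteins are large secreted glycoproteins that bind the immunoglobulin domains of Robo receptors, with heparan sulphate on the cell surface as a co-factor, and the bound receptor acts on the actin cytoskeleton through GTPase-activating proteins, kinases and adaptors. The pair is best known for repelling growing axons at the midline. In the retina, Slit1 and Slit2 guide ganglion cell axons through Robo2, and Slit2 also acts on vessels.

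RNA-seq was measured in retinas of 3 groups of mice at P28, with 3 libraries per group. WT mice were C57 BL/6J, not treated. The rd10 mice carry a mutation in Pde6b, a subunit of the rod phosphodiesterase, and their rods degenerate; they received 1 μl of normal saline (NS) or of MSC-EVs in both eyes at P14 and at P21. MSC-EVs are extracellular vesicles released by mesenchymal stem cells, here from human umbilical cord. The NS-treated and MSC-EVs-treated mice were littermates, whereas the WT mice came from another supplier and had no injection, so genotype, source and injection cannot be told apart between WT and rd10. The labels word the route as intravenous in one place and as into the vitreous in another. Nothing says that each library was 1 animal, so the p-values measure the spread between these libraries, which may be technical. In bulk RNA, fewer cells of a type and less RNA per cell cannot be told apart.

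The estimated counts summed to 19491721 to 62532357 per library, and MSC-EVs replicate 3 was the deepest. Replicates of a group differed by more than sampling noise, their chi-square divided by its degrees of freedom being 4.1 to 31.3. Rod markers were high in all 9 libraries, at a summed 70100 to 75400 CPM in WT and 14100 to 20500 CPM in rd10 (CPM, counts scaled to library depth, here with TMM factors). MSC-EVs replicates 1 and 2 held 4379 and 4421 counts of 4 Y-linked genes (Kdm5d, Uty, Ddx3y and Eif2s3y), and the other 7 libraries held 7 to 23. MSC-EVs replicates 1 and 2 thus stood apart from every other library in these genes. The labels give no sex, so sex may be partly confounded with treatment wherever MSC-EVs-treated rd10 is compared, also for Slit3. Some results that rest on these replicates are also given without them, but the FPKM shares and the marker sums are not.

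The 7 genes lie on 5 chromosomes (positions from GENCODE M21 on GRCm38; the build used for the counts is not given in the sources used here). Slit1 lies at chr19:41600257-41743665 on the minus strand, Slit2 at chr5:47983138-48307733 on the plus strand, and Slit3 at chr11:35121224-35708507 on the plus strand. Robo1 (chr16:72308306-73046095, plus) and Robo2 (chr16:73891839-74411825, minus) share a chromosome. Robo4 (chr9:37401897-37415115, plus) and Robo3 (chr9:37415669-37433246, minus) are neighbours that end 553 bases apart. Slit2 is overlapped on the other strand by the antisense RNA 4930518C09Rik, and whether the counting used strand is not given. Of the 50-base words of the transcripts, 0.146% in Robo1 and 0.0855% in Slit2 also occur in another gene, and none do in Slit1, Slit3, Robo2, Robo3 or Robo4.

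A pair of the ligand genes also carry a microRNA. Mir218-1 lies in intron 16 of Slit2 and Mir218-2 in intron 14 of Slit3, both on the strand of the host. They are shown because the gene on which the family was chosen and the most abundant ligand encode the same mature arm. The mature sequences are from RefSeq on GRCm38.p6, with the seed (bases 2 to 8) in capitals. The 5p arm is the same from both genes (chr5:48223966-48223986 and chr11:35616840-35616860), and the 3p arms differ, at chr5:48224005-48224026 and chr11:35616882-35616903.
mmu-miR-218-5p: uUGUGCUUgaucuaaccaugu
mmu-miR-218-1-3p: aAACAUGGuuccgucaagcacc
mmu-miR-218-2-3p: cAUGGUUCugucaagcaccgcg
The 2 copies share the seed of the 5p arm, while the seeds of the 3p arms are different. The libraries were made from mRNA enriched with oligo(dT), and mature miR-218 was not analysed here.

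Slit2, Robo1 and Robo2 moved together between WT and rd10 (below), and the bases just before their RefSeq start sites are shown for that reason (GRCm38.p6, 5′ to 3′ on the strand of the gene). The capitals mark CG pairs and, in Slit2, the letters TATAAA. Slit2 is at chr5:47982905-47983137, Robo1 at chr16:72662899-72663148 and Robo2, at the most downstream of its 3 listed starts, at chr16:74411826-74412075 on the minus strand. The Robo1 window lies inside the GENCODE span of the gene given above, downstream of its GENCODE start.
Slit2: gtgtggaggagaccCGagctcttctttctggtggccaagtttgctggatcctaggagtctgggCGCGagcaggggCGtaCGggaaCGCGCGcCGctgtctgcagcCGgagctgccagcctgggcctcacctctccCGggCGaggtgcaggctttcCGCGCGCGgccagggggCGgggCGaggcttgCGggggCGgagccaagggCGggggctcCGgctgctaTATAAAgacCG
Robo1: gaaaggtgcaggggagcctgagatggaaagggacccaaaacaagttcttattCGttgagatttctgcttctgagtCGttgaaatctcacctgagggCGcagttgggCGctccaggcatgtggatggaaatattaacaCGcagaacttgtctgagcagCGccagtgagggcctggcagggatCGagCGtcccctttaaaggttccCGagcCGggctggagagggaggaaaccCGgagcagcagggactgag
Robo2: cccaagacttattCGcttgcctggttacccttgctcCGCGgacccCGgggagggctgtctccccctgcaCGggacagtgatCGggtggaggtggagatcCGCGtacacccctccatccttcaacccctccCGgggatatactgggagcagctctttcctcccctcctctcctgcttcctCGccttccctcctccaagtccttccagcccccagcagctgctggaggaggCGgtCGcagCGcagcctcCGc
In the full window of 250 bases, Slit2 held 25 CG pairs, Robo2 14 and Robo1 11. The median over 32851 promoter windows of that length was 6, and 10.7% of them held at least as many as Slit2. Slit3, whose window lies almost whole in its annotated first exon and is not printed, held 35, a number reached in 2.97% of windows. Robo4 was at the other end with 2 CG pairs, and Robo3 held 12. Slit1 is named only. TATAAA, searched on both strands, was found in the window of Slit2 and in that of no other member, and in 12.4% of all windows. TGANTCA (in 6.75% of all windows) was found in no member's window, and CACGTG (in 6.02%) in 1 of the 3 windows of Robo2. These matches are a description of letters in a window.

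Levels were compared between genes in FPKM, which scales fragments to transcript length and library depth. In WT retina Slit2 was the most abundant member, at 28.8 ± 1.11 FPKM (SD, n = 3). Robo2 followed at 16.5 ± 1.21, then Slit1 at 3.803 ± 0.344 and Robo1 at 3.41 ± 0.24. Slit1 and Robo1 overlapped in WT, with libraries from 3.6 to 4.2 and from 3.22 to 3.68 FPKM. Robo4 was at 1.05 ± 0.05 FPKM, and Robo3 (0.15 ± 0.06) and Slit3 (0.13 ± 0.08) were the lowest and overlapped. In NS-treated rd10 Slit2 (37.5 ± 4.19) and Robo2 (26.46 ± 2.002) again came first, while Robo1 (6.59 ± 1.00) stood above Slit1 (4.39 ± 0.83) with no overlap between the libraries. Robo4 (1.34 ± 0.08), Slit3 (0.49 ± 0.13) and Robo3 (0.25 ± 0.09) followed in that order, also with no overlap. In MSC-EVs-treated rd10, Slit2 was at 41.8 ± 0.95, Robo2 at 28.5 ± 2.09, Robo1 at 6.88 ± 0.42 and Slit1 at 5.35 ± 0.55 FPKM. There Slit3 (1.52 ± 0.45 FPKM) overlapped Robo4 (1.32 ± 0.17), and Robo3 was the lowest at 0.18 ± 0.05.

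**Figure D1:**
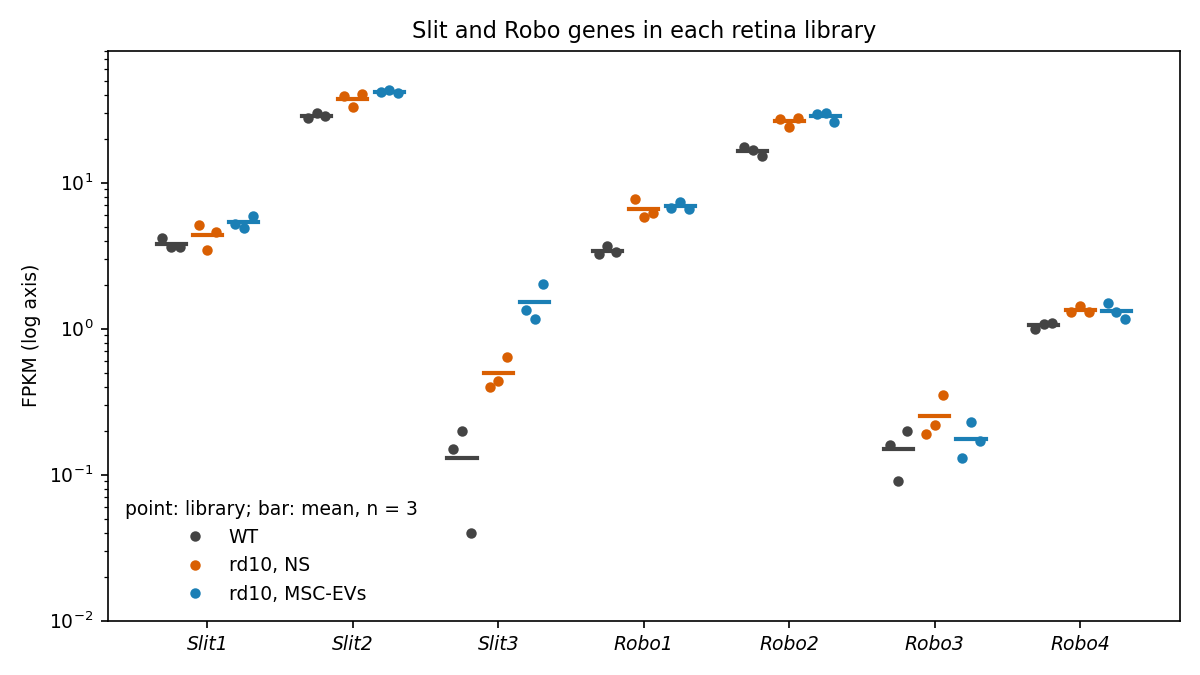
FPKM of the 7 genes on a log axis, with a point for each library and a bar for the mean of the 3 libraries of each group (WT in black, rd10 given NS in orange, rd10 given MSC-EVs in blue). Slit2 and Robo2 are the highest ligand and receptor in every library, and Slit3 is the gene whose 3 groups lie farthest apart, at means of 0.13, 0.49 and 1.52 FPKM.

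In each family 1 gene held most of the transcripts. Of the summed FPKM of the 3 Slit genes, Slit2 held 88% in WT, 88.5% with NS and 85.9% with MSC-EVs. Slit3 held 0.394 ± 0.242%, 1.17 ± 0.256% and 3.11 ± 0.911% (SD, n = 3). Even in MSC-EVs-treated rd10, Slit3 was therefore a small part of the Slit transcripts. Of the summed FPKM of the 4 Robo genes, Robo2 held 78.1 ± 1.73%, 76.4 ± 1.56% and 77.3 ± 0.744% in the same order. Robo1, a receptor of Slit2 on axons and vessels, held 16.2 ± 1.29%, 19 ± 1.89% and 18.7 ± 0.947%. Robo4, the vascular member, held 5.01 ± 0.475%, 3.9 ± 0.559% and 3.58 ± 0.319%. In FPKM, the shares of Robo1 and Robo4 did not overlap between WT and either rd10 group. An exact two-sided permutation test of 3 against 3 libraries cannot go below 0.1, which is the value it gave for each of these 4 differences (Benjamini-Hochberg adjusted p = 0.3 over 12 exact tests). The FPKM of Robo1 also depends on the transcript length assigned to each library (below). For MSC-EVs-treated rd10 against WT, its log2 ratio of means was 1.01 in FPKM and 0.705 in CPM. Shares of the counts were not tested.

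Slit3 was measured in few reads. The estimated counts were 19, 25 and 5 in WT, 59, 45 and 69 in NS-treated rd10, and 163, 138 and 665 in MSC-EVs-treated rd10. Scaled to depth they were 0.852, 1.12 and 0.25 CPM in WT, 1.99, 2.21 and 3.16 CPM in NS-treated rd10, and 6.82, 5.89 and 10.3 CPM in MSC-EVs-treated rd10. No library of a group reached into the next, and WT replicate 3 was the lowest and MSC-EVs replicate 3 the highest of the 9. The log2 fold change was 1.69 ± 0.39 (SE) in NS-treated rd10 against WT, or 3.22-fold. It was 1.67 ± 0.27 in MSC-EVs-treated against NS-treated rd10, or 3.19-fold, and 3.37 ± 0.42 in MSC-EVs-treated rd10 against WT, or 10.3-fold. The comparisons share groups, so these values are not independent of each other. Without WT replicate 3, the library with 5 counts, the value of NS-treated rd10 against WT was 1.3, and without WT replicate 2 it was 2.11. Without MSC-EVs replicate 3, the value of MSC-EVs-treated against NS-treated rd10 was 1.38, and without MSC-EVs replicates 1 and 2, the libraries with Y-linked counts, it was 2.09.

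Slit2, the main ligand for ganglion cell axons and vessels, rose in rd10. It was at 145, 150 and 140 CPM in WT, 184, 175 and 201 CPM in NS-treated rd10, and 188, 182 and 179 CPM in MSC-EVs-treated rd10. All 6 rd10 libraries were above all 3 WT libraries, and the rd10 groups overlapped. In edgeR's quasi-likelihood test, with Benjamini-Hochberg adjustment over all genes tested, the log2 fold change was 0.36 ± 0.06 (SE) in NS-treated rd10 against WT (adjusted p = 0.000244). It was 0.34 ± 0.05 in MSC-EVs-treated rd10 against WT (adjusted p = 0.000356). With MSC-EVs against NS it was -0.02 ± 0.07 (edgeR, adjusted p = 0.893), and no difference was detected.

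The count and the FPKM of Slit2 did not move by the same factor. Their ratio gives the transcript length the estimate assigned to a library, which was 4803, 4660 and 4521 bases in WT, 4852, 5608 and 5219 bases in NS-treated rd10, and 4707, 4395 and 4486 bases in MSC-EVs-treated rd10. The 3 NS-treated libraries were above the other 6. As a result, the log2 ratio of MSC-EVs-treated to NS-treated means was 0.158 in FPKM and -0.027 in CPM. A larger shift in length than that of Slit2 between WT and NS-treated rd10 was found in 1.85% of 8529 genes, and between the rd10 groups in 2.34%. Slit2 has 23 transcripts in GENCODE, 5 of them coding, and no transcript levels were analysed here. For Slit3 the assigned length was 5167 to 5246 bases in the 6 rd10 libraries. For Robo1 it was 6133, 5476 and 6332 bases in WT, 4926, 6280 and 6157 bases in NS-treated rd10, and 5590, 5464 and 5094 bases in MSC-EVs-treated rd10. The log2 ratio of Robo1 means was 0.951 in FPKM and 0.714 in CPM for NS-treated rd10 against WT. For MSC-EVs-treated rd10 against WT it was 1.01 and 0.705, and 3.61% of genes had a larger shift in length.

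Slit1, a ligand known mainly from the nervous system, was at 24.94, 21.04 and 21.57 CPM in WT, 26.8, 18.1 and 24.2 CPM in NS-treated rd10, and 27.2, 25.5 and 31.3 CPM in MSC-EVs-treated rd10. NS-treated rd10 overlapped both other groups, and the MSC-EVs-treated libraries were just above WT. The log2 fold change was 0.04 ± 0.14 in NS-treated rd10 against WT (edgeR, adjusted p = 0.834) and 0.29 ± 0.15 in MSC-EVs-treated against NS-treated rd10 (adjusted p = 0.31). In MSC-EVs-treated rd10 against WT it was 0.32 ± 0.10 (edgeR, adjusted p = 0.0214), but this call depended on single libraries. The edgeR adjusted p was 0.0983 without WT replicate 2, 0.0866 without WT replicate 3, 0.0674 without MSC-EVs replicate 3 and 0.0647 with all 9 libraries in one fit. Without MSC-EVs replicates 1 and 2 it was 0.000913, at a log2 fold change of 0.48.

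Robo1 was the member with the clearest rise among those tested. It was at 21.4, 21.6 and 22.9 CPM in WT, 36.8, 35.1 and 36.4 CPM in NS-treated rd10, and 36.0, 38.8 and 32.6 CPM in MSC-EVs-treated rd10. All rd10 libraries were above all WT libraries. The log2 fold change was 0.71 ± 0.07 (SE) in NS-treated rd10 against WT (edgeR, adjusted p = 4.55e-06), or 1.64-fold, and 0.71 ± 0.09 in MSC-EVs-treated rd10 against WT (edgeR, adjusted p = 0.000105). For MSC-EVs against NS it was -0.01 ± 0.09 (adjusted p = 0.979).

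Robo2, the receptor through which ganglion cell axons answer Slit1 and Slit2, was at 113, 104 and 94.8 CPM in WT, 153, 126 and 150 CPM in NS-treated rd10, and 161, 158 and 147 CPM in MSC-EVs-treated rd10. The rd10 libraries again lay above WT with no overlap. The log2 fold change was 0.46 ± 0.09 (SE) in NS-treated rd10 against WT (edgeR, adjusted p = 0.00081) and 0.58 ± 0.07 in MSC-EVs-treated rd10 against WT (edgeR, adjusted p = 0.000102). MSC-EVs against NS gave 0.12 ± 0.08 (adjusted p = 0.442).

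Robo3 and Robo4 passed the test in none of the 3 comparisons. Robo3, which in mammals does not bind Slits with high affinity and responds to NELL2, was at the lowest depth: the estimated counts were 18, 10 and 21 in WT, 26, 21 and 34 in NS-treated rd10, and 15, 24 and 51 in MSC-EVs-treated rd10. Its groups overlapped in CPM, and the log2 fold changes of 0.58 ± 0.37, -0.49 ± 0.34 and 0.09 ± 0.38 (NS-treated rd10 against WT, MSC-EVs-treated against NS-treated rd10, MSC-EVs-treated rd10 against WT) did not pass (edgeR, adjusted p = 0.197, 0.458 and 0.849). Robo4, expressed in endothelial cells, was at 3.86, 4.30 and 4.45 CPM in WT, 4.67, 4.90 and 4.26 CPM in NS-treated rd10, and 5.39, 4.61 and 4.31 CPM in MSC-EVs-treated rd10. Its log2 fold change was 0.13 ± 0.16 in NS-treated rd10 against WT (edgeR, adjusted p = 0.491), 0.05 ± 0.17 between the rd10 groups (adjusted p = 0.901) and 0.18 ± 0.17 in MSC-EVs-treated rd10 against WT (adjusted p = 0.374). In FPKM, by contrast, all 6 rd10 libraries of Robo4 (1.16 to 1.5) lay above all 3 of WT (1 to 1.09), a scale on which the median gene was also 0.152 higher in log2 in NS-treated rd10 than in WT. Over the same libraries, endothelial markers (Pecam1, Cdh5, Kdr, Tie1, Tek, Cldn5, Esam and Emcn) summed to 232 to 236 CPM in WT and 353 to 434 CPM in rd10. In NS-treated rd10 against WT 6 of 8 rose, as did 31.2% of all genes. Tek (0.16 ± 0.12) and Esam (0.19 ± 0.10) did not pass, and their changes were near that of Robo4. Robo4 held 86 to 277 counts per library.

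**Figure D2:**
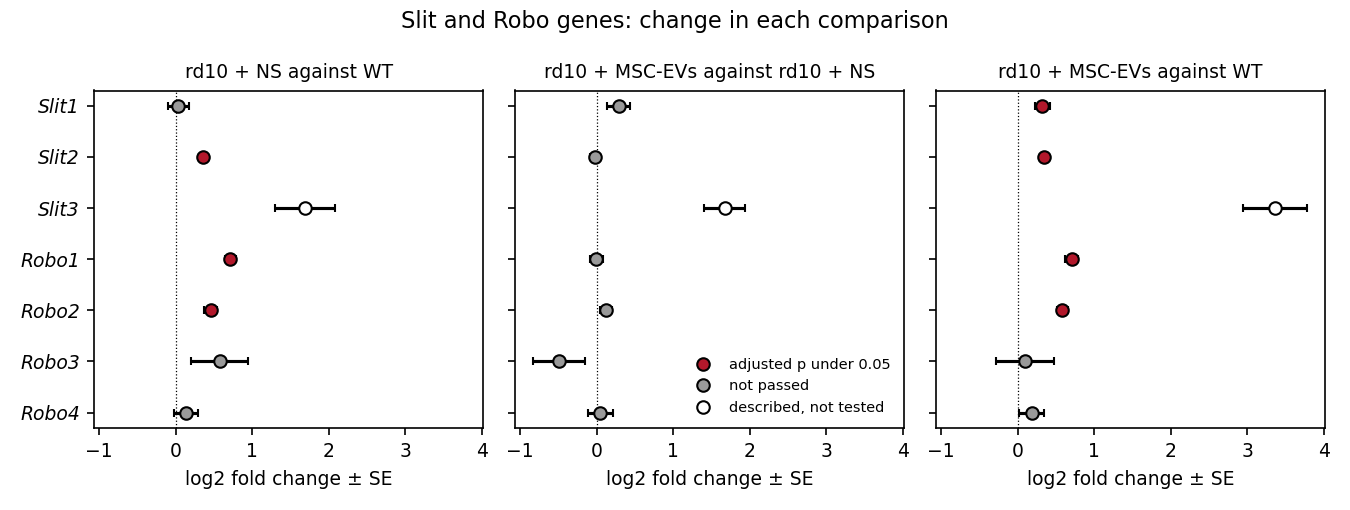
Log2 fold change of the 7 genes with its standard error, in the 3 comparisons. Filled red points passed the test (Slit2, Robo1 and Robo2 in NS-treated rd10 against WT; these and Slit1 in MSC-EVs-treated rd10 against WT), grey points did not, and Slit3 is open because it was not tested.

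Of the 6 tested members, 3 rose and 0 fell in the NS-treated rd10 libraries against WT. Over all 14644 genes of that comparison 31.2% passed as higher and 30.1% as lower, and libraries did not overlap in 66.9%, against 3 of the 6 members. The members' median log2 fold change was 0.41, beside 0.01 over all genes tested. In MSC-EVs-treated rd10 against WT, 4 members were higher and 0 lower, where 28.3% of 14623 genes passed as higher and 27.2% as lower and 65.2% did not overlap. Between the rd10 groups 0 of 6 passed in either direction in edgeR and in limma, DESeq2 called 0 of the 5 for which it gave an adjusted p (Robo3 had none), and 0 had an unadjusted edgeR p under 0.05, which 20.2% of all genes had. In that comparison 0.914% of 14765 genes passed as higher and 0.251% as lower, and 26.3% did not overlap, against 0 of the 6 members. Without MSC-EVs replicates 1 and 2, MSC-EVs-treated rd10 against WT also gave 4 members that passed, with log2 fold changes of 0.31 for Slit2, 0.58 for Robo1 and 0.50 for Robo2; the remaining MSC-EVs library is then assumed to vary as WT does. With the limit of an absolute log2 fold change of 1 as well, none of the 6 members passed in any comparison. Of all genes, 9.16% passed this limit as higher and 3.56% as lower in NS-treated rd10 against WT, and 0.0542% and 0.00677% between the rd10 groups.

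Genes around the receptors and ligands were taken from a list of 50, of which Tll2 failed the filter. The list was drawn up with earlier results of these data known. In NS-treated rd10 against WT, 30 of the 49 tested rose and 7 fell, with a median log2 fold change of 0.23. In MSC-EVs-treated rd10 against WT, 30 rose and 5 fell. With Y-linked expression as a covariate, 28 genes of the list passed in that comparison, against 35 without it. Of all genes, 31.2% passed as higher and 30.1% as lower in NS-treated rd10 against WT. In MSC-EVs-treated rd10 against WT the shares were 28.3% and 27.2%. The counts of the parts of the list below are to be read beside these shares. In each of these comparisons 3 of the 49 rose at least 2-fold and 0 fell as much. Over all genes the shares at this 2-fold limit were 9.16% and 3.56% in NS-treated rd10 against WT, and 9% and 3.2% in MSC-EVs-treated rd10 against WT.

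The surface proteins listed as Slit-binding had 7 rises and 1 fall among 8 in NS-treated rd10 against WT. Of all genes, 31.2% rose and 30.1% fell there. Flrt3 (log2 fold change 0.50 ± 0.11) is among the 7 rises, and binding to Slit was not measured here. Syndecan-4 (Sdc4) was at 59.2, 64.0 and 66.4 CPM in WT and 115, 116 and 114 CPM in NS-treated rd10, a rise of 0.86 ± 0.06 on the log2 scale (edgeR, adjusted p = 1.48e-07). Syndecan-1 (Sdc1) had a larger change from a low level, from 0.583, 0.582 and 0.601 CPM to 1.79, 3.63 and 1.60 CPM (1.96 ± 0.37, edgeR, adjusted p = 0.000595). Dystroglycan (Dag1), which binds Slit at basement membranes, rose by 0.47 ± 0.06 and glypican-1 (Gpc1) by 0.37 ± 0.07. The fall was in syndecan-3 (Sdc3), at -0.36 ± 0.06.

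Of the 7 enzymes that build heparan sulphate, 2 rose and 1 fell in the same comparison. Ext1, a polymerase of the chain, fell from 66.2, 64.4 and 58.5 CPM in WT to 38.2, 42.1 and 33.9 CPM in NS-treated rd10 (log2 fold change -0.73 ± 0.08, edgeR, adjusted p = 1.29e-05). The 6-O-sulphotransferase Hs6st2 rose by 0.63 ± 0.11 and the epimerase Glce by 0.22 ± 0.07.

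Of the 21 cytoplasmic effectors of Robo, 11 rose and 5 fell. The deubiquitinase Usp33, which binds Robo1, fell from 330, 324 and 344 CPM in WT to 172, 181 and 171 CPM in NS-treated rd10 (log2 fold change -0.94 ± 0.05, edgeR, adjusted p = 3.24e-08). The actin regulator Vasp rose by 0.83 ± 0.11, the kinase Pak3 by 0.60 ± 0.07 and the GTPase Rac1 by 0.45 ± 0.06. The effectors thus moved in both directions, and their median was 0.16.

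Among the enzymes that process Slit or Robo, Bmp1, a tolloid-family protease, was at 14.6, 12.8 and 15.9 CPM in WT, 49.8, 71.8 and 59.6 CPM in NS-treated rd10, and 74.1, 83.7 and 50.7 CPM in MSC-EVs-treated rd10. Its log2 fold change of 2.06 ± 0.13 in NS-treated rd10 against WT (edgeR, adjusted p = 5.4e-07) was the largest of the list. The sheddase Adam10 rose by 0.22 ± 0.07.

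The neighbouring guidance system of netrins, NELL proteins and their receptors had 8 rises and 0 falls among 10. The repulsive netrin receptor Unc5c was at 39.5, 39.3 and 36.7 CPM in WT and 81.0, 78.9 and 78.2 CPM in NS-treated rd10 (log2 fold change 1.04 ± 0.06, edgeR, adjusted p = 4.19e-08). Ntn4 rose by 0.75 ± 0.11, Unc5d by 0.69 ± 0.07 and neogenin (Neo1) by 0.47 ± 0.06. In MSC-EVs-treated rd10 Unc5c was at 53.4, 74.7 and 48.1 CPM, below every NS-treated library, but its log2 fold change between the rd10 groups of -0.43 ± 0.15 did not pass (edgeR, adjusted p = 0.174).

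Between the rd10 groups, 0 of the 49 genes passed edgeR's test, 11 had an unadjusted p under 0.05 (beside 20.2% of all genes), and the median log2 fold change was 0.07. limma on log2(FPKM + 1) also called 0. DESeq2 called 4 (Sdc2, Ndst1, Hs2st1 and Unc5c, named here after their values were seen), and one edgeR fit of all 9 libraries called 4, of which Sdc2, Ndst1 and Hs2st1 were the same and Plxna1 was the other. Without MSC-EVs replicate 2 there were 2 calls (Hs2st1 and Unc5c), without MSC-EVs replicate 3 there was 1 (Ndst1), and without MSC-EVs replicates 1 and 2 there was 1 (Unc5c).

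**Figure D3:**
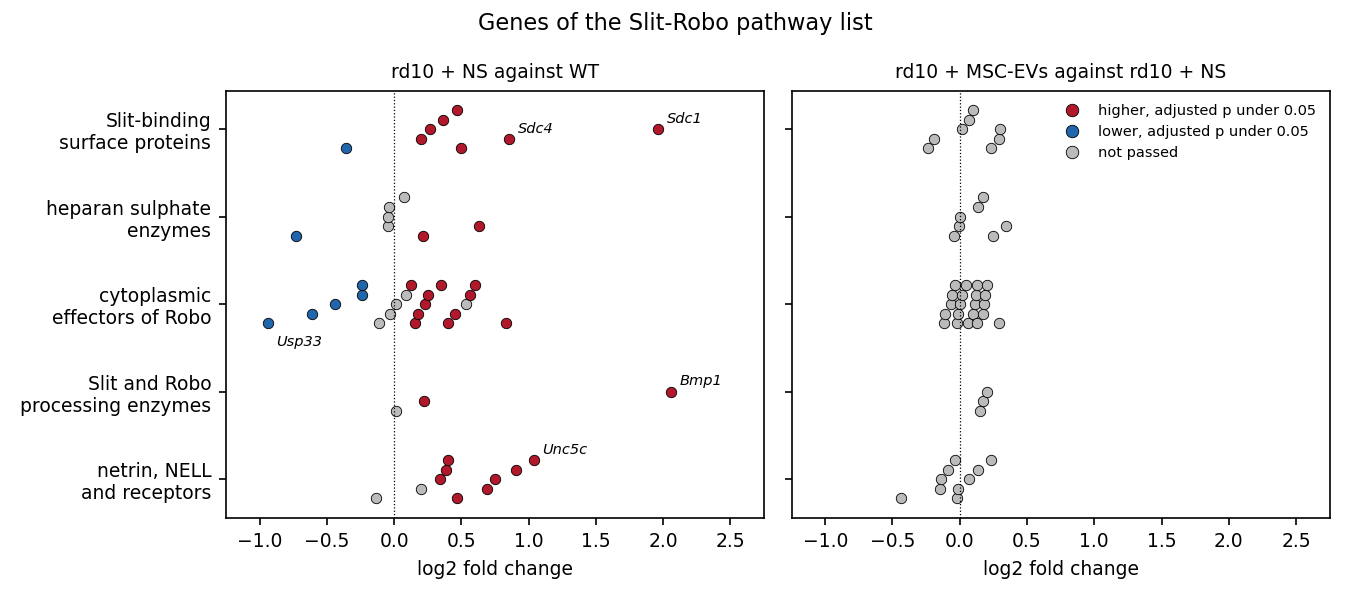
Log2 fold change of the 49 tested genes of the pathway list by role, in NS-treated rd10 against WT and in MSC-EVs-treated against NS-treated rd10. In the first comparison 30 points are red (higher) and 7 blue (lower), with Bmp1 and Sdc1 farthest to the right and Usp33 farthest to the left; in the second all points are grey and lie between -0.43 and 0.34.

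Cell type markers differed between WT and rd10 in these libraries, and the marker lists are set beside the members for that reason. All 8 rod markers fell (median log2 fold change -1.72 in NS-treated rd10 against WT). Over all genes of that comparison 31.2% passed as higher and 30.1% as lower, and the counts of markers are to be read beside these shares. Cone markers had a median of -0.44 (3 of 6 fell and 1 rose). Medians were 0.27 for amacrine markers (6 of 7 rose), 0.35 for ganglion cell markers (5 of 8) and 0.30 for bipolar markers (4 of 7, with 1 fall). They were 0.42 for horizontal cell markers (3 of 4), 0.47 for endothelial markers (6 of 8), 0.53 for pericyte and smooth muscle markers (4 of 7) and 0.75 for Müller glia markers (5 of 6). The changes of Slit2, Robo2 and Robo1 were 0.36, 0.46 and 0.71. The lists with higher medians were microglia and macrophage (1.49, 5 of 5 rose), pigment epithelium (1.49, 3 of 6), fibroblast (1.45, 3 of 5) and astrocyte and gliosis (1.38, 3 of 4). Slit3, whose change was used to choose the family, was at 1.69. The part of cell makeup in the change of any member was not tested.

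**Figure D4:**
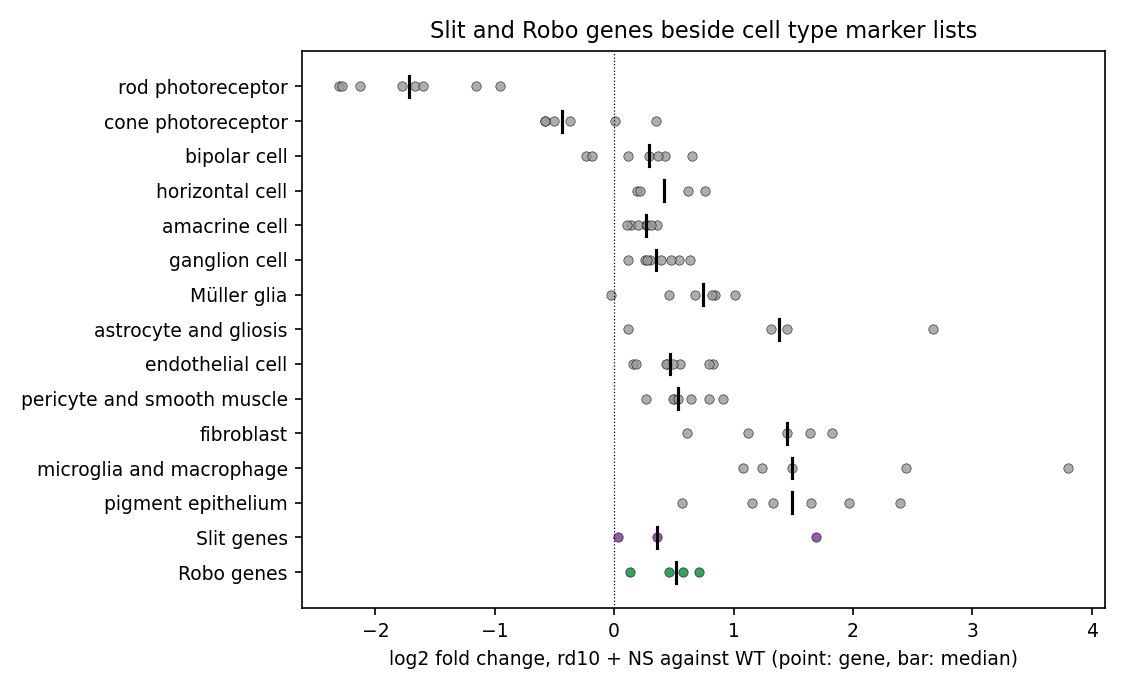
Log2 fold change in NS-treated rd10 against WT of the genes of 13 marker lists, of the 3 Slit genes and of the 4 Robo genes, with a point for each gene and a bar for the median. Rod markers lie to the left of 0 around -1.72, and Slit3 at 1.69 lies to the right of the other 6 members.

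The summed Müller glia markers were 4950 to 5880 CPM in the NS-treated libraries and 4150 to 4580 CPM in the MSC-EVs-treated ones. Pericyte and smooth muscle markers summed to 206 to 232 and 172 to 198 CPM. Neither sum overlapped between the groups, but 0 of 6 and 0 of 7 of these markers passed edgeR's test. Taken singly, 3 of the 6 and 1 of the 7 did not overlap, beside 26.3% of all genes. Among cone markers 4 of 6 did not overlap, and among rod markers 0 of 8. Ganglion cell markers had 3 of 8, horizontal cell markers 2 of 4, and bipolar and amacrine markers 1 of 7 each. None of these passed edgeR's test either. The median log2 fold change was -0.33 for cone and -0.17 for Müller glia markers. The cone sums overlapped (931 to 1030 CPM with NS and 747 to 1020 CPM with MSC-EVs). The groups overlapped in the sums of fibroblast markers (66.0 to 71.2 and 65.8 to 69.3 CPM), microglia and macrophage markers (81.3 to 108 and 81.9 to 130 CPM), endothelial markers (370 to 399 and 353 to 434 CPM), and astrocyte and gliosis markers (531 to 776 and 696 to 893 CPM). Pigment epithelium markers were at 132, 34.7 and 87.1 CPM with NS and at 35.8, 36.4 and 73.0 CPM with MSC-EVs. The part of these differences in the values of Slit3 was not tested.

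Across the 9 libraries, Slit2, Robo1 and Robo2 had like profiles of log2(CPM + 1), with Pearson's r of 0.94 for Slit2 and Robo1, 0.93 for Slit2 and Robo2 and 0.91 for Robo1 and Robo2. The 9 points fall into WT and rd10, and 8.85% of 14873 genes had r of at least 0.9 with Slit2, 12.7% with Robo1 and 7.87% with Robo2. Slit3 was less like them (0.76 with Slit2, 0.73 with Robo1, 0.84 with Robo2), and 1.69% of genes reached 0.9 with it. Robo3 (0.42 or less with any member) and Robo4 (0.60 or less) stood apart at their low counts.

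The genes most like Slit3 over the 9 libraries were Rwdd4a (r = 0.98), Tle4 (0.97), Ankrd6 (0.97), Plce1 (0.97) and Grik3 (0.97). Grik3, a kainate receptor subunit, was at a mean of 12.7, 24.5 and 46.3 CPM in WT, in rd10 given NS and in rd10 given MSC-EVs, and Plce1, a phospholipase C, at 26, 43 and 62.2 CPM. All 5 had the same order of group means as Slit3, which is what the measure selects. The genes most like Robo1 were Vat1 (0.997), Rab7b (0.997) and H2-Q6 (0.996), those most like Slit2 were Samd14, Tcaf1 and Cdc42ep4 (each 0.99), and those most like Robo2 were Nalcn, Drd1 and Magi2 (0.99). Mapk8ip3, Jcad and Zdhhc9 were most like Slit1 (0.96 to 0.97), Fam163b, Nsmaf and Tram1l1 most like Robo3 (0.90 to 0.98), and Mybl1, Nudcd2 and Cyp4v3 most like Robo4 (0.93 to 0.94).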

How the data were processed

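RNA-seq libraries of retina from WT mice and from rd10 mice given NS or MSC-EVs (3 per group) were analysed. Estimated counts, not scaled to depth, and FPKM values were made by the authors and deposited in a single table of 22337 genes. The submitters' processing notes name fastp, Bowtie2, HISAT2, StringTie 1.3.1 and RSEM, with no order; build and annotation are not given in the sources used here. The deposited FPKM values were scaled by the authors to transcript length and depth.

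Estimated counts were rounded and the 6 libraries of each pair of groups were fitted (R 4.3.3, edgeR 4.0.16, filterByExpr, TMM, robust glmQLFit, glmQLFTest), with Benjamini-Hochberg adjustment over all genes tested and a threshold of 0.05. A standard error is the log2 fold change divided by the root of F. The tests were tried on simulated counts. Members and lists were chosen with earlier results of these data known. Besides the members and markers, the genes named are those of the pathway list that passed, at most the 4 with the smallest p per sub-list and comparison, and the genes of highest correlation with a member (5 for Slit3, 3 for the others, after log2(CPM + 1)). Shares of FPKM were compared by exact two-sided permutation tests. Alternatives were other scalings and filters, DESeq2 1.42.0, limma 3.58.1 on log2 FPKM with a pseudocount of 1 or 0.1, all 9 libraries in one fit, a replicate block, Y-linked expression as a covariate, and each library left out. FPKM changes against WT carry a shift: over 12812 genes with a mean of at least 1 FPKM, the median log2 ratio of NS-treated rd10 to WT was 0.152 in FPKM and -0.02 in TMM-scaled CPM, so changes were taken from the counts.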

Additional observations from a re-analysis of the deposited data

How the results depend on the processing

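The calls of Slit2, Robo1 and Robo2 against WT kept their direction and side of the threshold under every alternative tried except a limit on the fold, and the call of Slit1 in MSC-EVs-treated rd10 did not (values in the report). Where a change of 1 or more in log2 was also required, 0 members and 3 pathway genes passed in either comparison with WT, since the changes were smaller. Between the rd10 groups, pathway genes passing numbered 4 with DESeq2, 4 with all 9 libraries in one fit, 0 to 2 with one replicate left out, and 1 without MSC-EVs replicates 1 and 2.

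Signs turned only for values that had not passed. Between the rd10 groups, limma on log2(FPKM + 1) gave 0.16 for Slit2, 0.0596 for Robo1 and -0.0143 for Robo4, and with a pseudocount of 0.1 it gave 0.164, 0.0685 and -0.0254. Robo4 was at -0.0836 with the Y-linked covariate and at -0.0862 without MSC-EVs replicates 1 and 2. With one replicate left out, the values between the rd10 groups ran from -0.0642 to 0.0338 for Slit2, -0.0666 to 0.0545 for Robo1 and -0.0385 to 0.12 for Robo4. In NS-treated rd10 against WT Slit1 ran from -0.0992 to 0.178, and in MSC-EVs-treated rd10 against WT Robo3 ran from -0.184 to 0.373. The cause was not tested. For Slit3, limma on log2(FPKM + 1) gave 0.40, 0.74 and 1.14 (NS-treated against WT, MSC-EVs-treated against NS-treated, MSC-EVs-treated against WT), because the pseudocount exceeds its level in most libraries.

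Same-numbered replicates were not treated as pairs: the deviations of NS-treated and MSC-EVs-treated libraries of one number correlated at 0.0868, 0.209 and 0.28, and those of WT and NS-treated libraries at 0.0875, -0.0784 and -0.0505. NS-treated and MSC-EVs-treated libraries each correlated best with their own number, a hint from the data and not from the design. With a replicate block, 3, 0 and 4 members passed in the 3 comparisons, as without it, and 36, 0 and 34 pathway genes, against 37, 0 and 35.

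Depth limits Slit3 in WT (5 to 25 counts) and Robo3 (10 to 51 counts per library).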
